A study of Mus musculus with 6 samples.

Results

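A set of 10 genes that mark the endothelial cells of brain vessels was followed through the visual cortex of mice lacking *Chrdl1* and of wild-type mice. They were *Cldn5*, *Pecam1*, *Flt1*, *Kdr*, *Slco1a4*, *Cdh5*, *Tek*, *Slc2a1*, *Abcb1a* and *Itm2a*, picked by symbol from the 24453 gene rows of the deposited expression table, 1 row each. Both groups were male C57BL/6J mice at postnatal day 14, perfused with paraformaldehyde before the visual cortex was taken. The 3 libraries labelled Chrdl1 KO carry a knockout of the gene for chordin-like 1, which binds and blocks bone morphogenetic proteins (BMPs) outside cells, and the 3 WT libraries do not. How the knockout was made, and in which cells, the labels do not say. Library titles carry a code found once per genotype, which gives pair A (KO1011 and WT1011), pair B (KO1012 and WT1012) and pair C (KO1013 and WT1013). What a code stands for is not said, and neither is whether the libraries came from separate animals, so the p-values cover a spread that may be technical.

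Endothelial cells line the blood vessels of the brain and form the blood-brain barrier. They seal the gaps between themselves with tight junctions, carry glucose and other nutrients inward through transporters, and pump foreign compounds back to the blood. Vascular endothelial growth factor (VEGF) and angiopoietins direct the growth and rest of these vessels, and in rodents the cortical vessel bed is still expanding in the first postnatal weeks. Several of the genes are also used by other cells: *Slc2a1* is made by astrocytes too, and *Pecam1* by some blood and immune cells.

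The knockout was measured first. *Chrdl1* stood at 3.57, 3.09 and 3.65 FPKM (fragments per kilobase of exon, scaled to the mapped total of the library) in WT1011, WT1012 and WT1013, and at 0.190, 0.120 and 0.172 FPKM in the KO libraries of the same codes, which goes with the labels. Its log2 fold change on log2(FPKM + 1), KO minus WT, was -1.93 (SE 0.09, limma adjusted p = 0.000489). That scale understates the change of a sparse gene. In FPKM the KO mean was 4.67% of the WT mean. Depth, recovered from the steps in the FPKM values, ran from 22.7 to 38.2 megareads per library. The KO library was the shallower in each pair. KO against WT it was 22.7 and 27.5 megareads in pair A, 31.9 and 34.0 in pair B, and 26.4 and 38.2 in pair C. Each endothelial gene rested on 319 to 3660 reads per library, and the 10 together on 8071 to 12574.

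The stretches of DNA just upstream of the genes are shown to place the genes and to show how their sequences differ. RefSeq promoter windows (build GRCm38.p6, the assembly behind mm10) were held for 8 of the 10 genes. *Pecam1* and *Cdh5* were not matched, and the window of *Abcb1a* lies 93001 bases from the start of the model in the expression table, so it is counted but not printed. The windows of 4 genes are printed, each the 250 bases before the RefSeq start site, 5′ to 3′ on the gene's own strand: that of *Flt1*, which had the largest difference between genotypes, and those of *Slc2a1*, *Slco1a4* and *Cldn5*, which differed most between pairs. They were chosen after these values had been seen. Capitals mark GGAA or its reverse complement TTCC, the core letters bound by ETS transcription factors such as ERG and FLI1, which are known for their part in endothelial identity.
Flt1 (chr5:147726012-147726261, minus strand): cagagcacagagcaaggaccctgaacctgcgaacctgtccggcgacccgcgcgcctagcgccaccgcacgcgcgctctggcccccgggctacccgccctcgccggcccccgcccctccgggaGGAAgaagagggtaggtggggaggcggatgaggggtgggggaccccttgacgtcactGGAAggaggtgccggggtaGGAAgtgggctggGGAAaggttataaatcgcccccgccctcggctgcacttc
Slc2a1 (chr4:119108495-119108744, plus strand): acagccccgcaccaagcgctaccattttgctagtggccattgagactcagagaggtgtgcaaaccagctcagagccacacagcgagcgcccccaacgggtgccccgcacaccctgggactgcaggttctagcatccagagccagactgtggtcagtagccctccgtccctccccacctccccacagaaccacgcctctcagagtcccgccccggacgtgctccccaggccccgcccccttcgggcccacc
Slco1a4 (chr6:141856221-141856470, minus strand): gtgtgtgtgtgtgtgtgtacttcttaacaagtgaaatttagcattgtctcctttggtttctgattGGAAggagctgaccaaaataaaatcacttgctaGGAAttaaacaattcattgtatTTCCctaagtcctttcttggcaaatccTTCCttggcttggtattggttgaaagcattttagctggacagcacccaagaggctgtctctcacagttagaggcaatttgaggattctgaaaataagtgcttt
Cldn5 (chr16:18776597-18776846, plus strand): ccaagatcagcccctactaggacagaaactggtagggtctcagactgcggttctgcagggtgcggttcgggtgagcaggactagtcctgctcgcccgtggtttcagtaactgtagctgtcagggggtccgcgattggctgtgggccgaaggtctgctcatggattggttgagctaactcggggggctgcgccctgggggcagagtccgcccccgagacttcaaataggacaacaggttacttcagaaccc

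The *Flt1* and *Slco1a4* windows each held 4 matches, and those of *Slc2a1* and *Cldn5* held 0. The matches on both strands were counted in 250-base windows of all genes as well. The letters GGAA occurred in 6 of the 8 endothelial windows and in 93.4% of all 32851 windows, so their presence does not set these genes apart. The longer string ACAGGAA, which contains the former, was in 0 of 8 (7.20% of all windows), the GATA-type core GATAA in 1 of 8 (22.6%) and the SOX-type core ACAAT in 2 of 8 (27.7%). A match describes letters only and is not a binding site.

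By mean FPKM over the 6 libraries, a level per length of exon, the genes fell into 3 abundant and 7 sparser ones. *Itm2a* was first at 36.4, then *Slc2a1* at 33.7, *Cldn5* at 32.5, *Slco1a4* at 8.06, *Pecam1* at 6.69, *Kdr* at 5.62, *Cdh5* at 4.98, *Flt1* at 4.03, *Abcb1a* at 3.97 and *Tek* at 3.45 FPKM. The only neighbours in this order whose library ranges were apart were *Cldn5* (lowest library 27.1) and *Slco1a4* (highest library 9.95). The ranges of other neighbours overlapped, though within a library *Pecam1* was above *Kdr*, and *Cdh5* above *Flt1*, in 6 of 6 libraries. Compared with the 12863 genes tested, *Itm2a* was at the 85.3rd percentile of mean level and *Tek* at the 22.2nd. All 10 passed the filter of a mean of 1 FPKM.

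**Figure D1:**
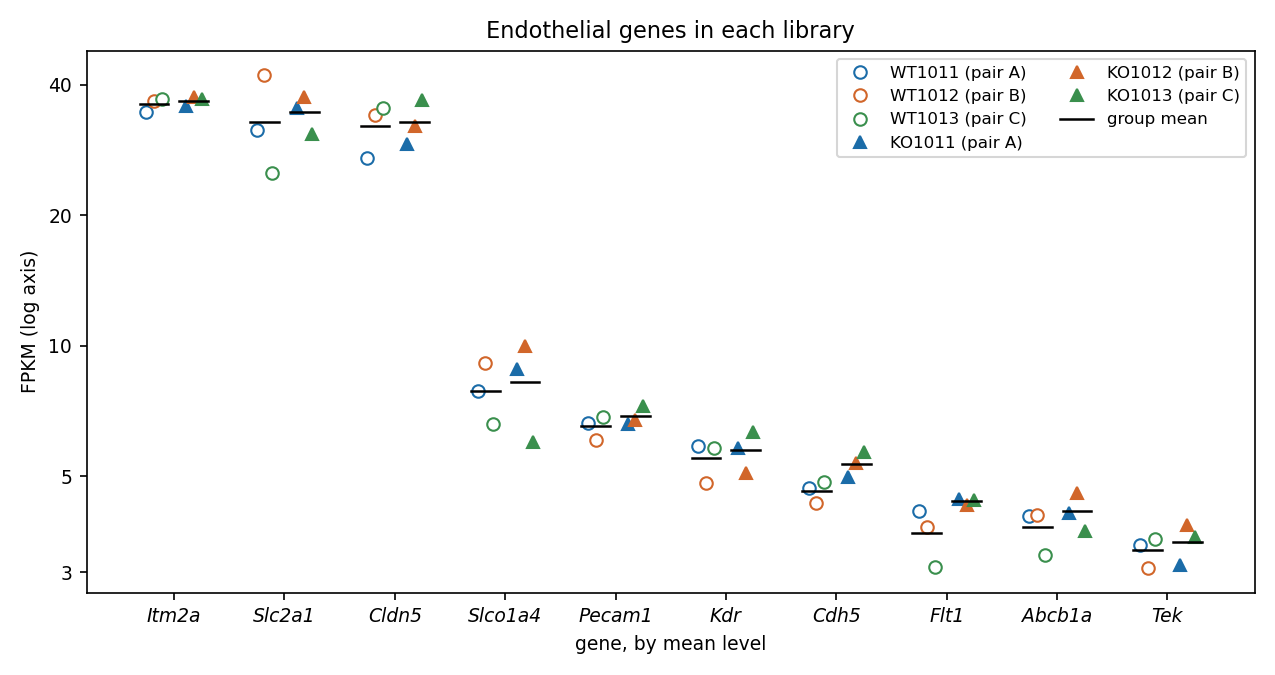
FPKM (log axis) of the 10 endothelial genes in each library, ordered by mean level; open circles are WT, filled triangles KO, colours are pairs and black bars group means (n = 3). *Flt1* and *Cdh5* are the genes whose KO points all lie above their WT points, and *Slc2a1* and *Slco1a4* have the widest range across all libraries.

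None of the 10 genes passed the test of KO against WT across all genes. Limma called 0 of 10 at an adjusted p under 0.05, against 1 of 12863 genes (0.00777%), which was *Chrdl1*. With the title code as a replicate block it again called 0 of 10 and 0.00777% of all genes. At an unadjusted p under 0.05 and higher in KO there were 0 of 10 without the block (0.249% of all genes) and 2 of 10 with it (1.8%), *Cdh5* and *Flt1*. Limma-voom on recovered reads also called 0 of 10 with and without the block, against 0.0155% and 0.00777% of all genes. At an unadjusted p under 0.05 in either direction voom had 0 of 10 without the block (0.723% of all genes) and 2 of 10 with it (4.17%), again *Cdh5* and *Flt1*.

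The measured differences were small and lay on the same side. All 10 log2 fold changes, KO minus WT on log2(FPKM + 1), were above 0, from 0.02 for *Itm2a* to 0.20 for *Flt1*, with a median of 0.06, where the median over all tested genes was 0.01 (6921 higher, 5942 lower). The genes share libraries, so their number is not a number of observations. Of the 10, 6 (*Cldn5*, *Kdr*, *Slco1a4*, *Tek*, *Slc2a1* and *Itm2a*) had a value below 0 with at least 1 of the libraries or pairs left out. *Pecam1*, *Flt1*, *Cdh5* and *Abcb1a* stayed above 0 in each of the alternatives run. On that scale the 95% intervals reached at most 1.5-fold either way for 10 of 10 genes, and with the block at most 1.25-fold for 9 of 10, the exception being *Flt1*. In whole tissue, a different number of endothelial cells (more or fewer) and a different amount of RNA per cell (more or less) cannot be told apart.

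KO was higher within 3 of 3 pairs for 3 of 10 genes (*Flt1*, *Cdh5* and *Abcb1a*), where 12.3% of all tested genes were, and within 2 of 3 pairs for the other 7. The KO libraries lay above every WT library for 2 of 10 (*Flt1* and *Cdh5*), where 1.76% of all tested genes did. Such counts over genes chosen with earlier results of these data in view describe these libraries only.

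**Figure D2:**
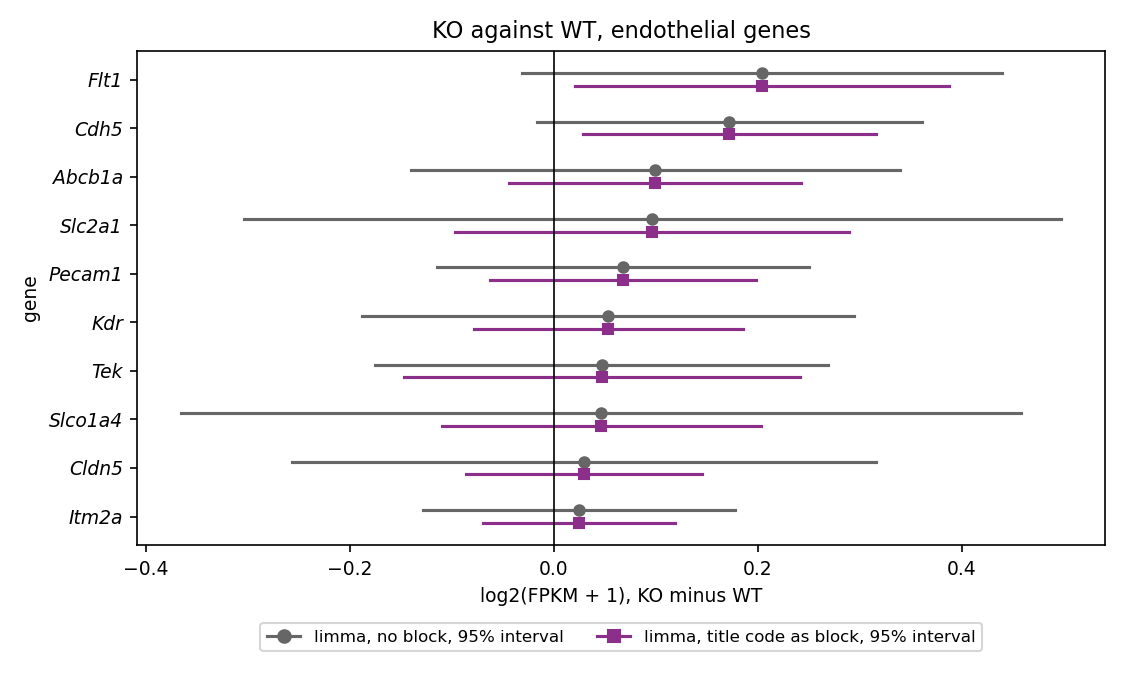
Difference of each endothelial gene, KO minus WT on log2(FPKM + 1), with 95% intervals from limma without a block (grey circles) and with the title code as a block (purple squares). The unblocked intervals all cover 0, and the blocked ones cover 0 except for *Flt1* and *Cdh5*.

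The receptors come first. *Flt1* (NM_010228, minus strand, chr5:147562196-147725988 in mm10) encodes VEGF receptor 1, which binds VEGF tightly and, in its soluble form, acts as a decoy. It measured 4.16, 3.82 and 3.08 FPKM in WT1011, WT1012 and WT1013, and 4.42, 4.30 and 4.398 in the matching KO libraries. The KO values were nearly level and all above the highest WT value, while WT1013 was low. The means were 3.69 ± 0.553 and 4.37 ± 0.068 FPKM (SD, n = 3), 18.6% higher in KO, with a log2 fold change of 0.20 (SE 0.10, 95% interval -0.03 to 0.44, limma adjusted p = 0.9999). Without both libraries of pair C the log2 fold change was 0.10. Within pairs the difference was 0.07, 0.14 and 0.40 for pairs A, B and C, so the largest part came from the pair with the low WT library.

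*Kdr* (NM_010612, minus strand, chr5:75933270-75978428) encodes VEGF receptor 2, the main signalling receptor of VEGF in endothelium. It stood at 5.85, 4.82 and 5.82 FPKM in WT1011, WT1012 and WT1013 and at 5.80, 5.09 and 6.32 in KO. Pair B was lowest in both genotypes and the groups overlapped. The log2 fold change was 0.05 (SE 0.10, interval -0.19 to 0.29). The ratio of *Flt1* to *Kdr* within a library was 0.678 ± 0.135 in WT and 0.767 ± 0.074 in KO (SD, n = 3), higher in KO in 3 of 3 pairs. The mean log2 ratio was 0.19 higher in KO, and 0.03 higher without WT1013. An exact 2-sided permutation test gave p = 0.50 (0.933 adjusted over 4 ratios), where 3 against 3 libraries cannot go below 0.1. That test ignores the pairs. A sign-flip test within pairs gave an unadjusted p = 0.25, the smallest that 3 pairs allow.

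*Tek* (NM_001290551, plus strand, chr4:94739289-94874976) encodes TIE2, the receptor of the angiopoietins. Its FPKM was 3.48, 3.07 and 3.59 in WT1011, WT1012 and WT1013, and 3.11, 3.86 and 3.61 in KO. The lowest WT library and the highest KO library were both of pair B, and pair A went the other way. The log2 fold change was 0.05 (SE 0.10, interval -0.18 to 0.27), made of differences of -0.12, 0.26 and 0.01 within pairs A, B and C.

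Among the junction and adhesion genes, *Cdh5* (NM_009868, plus strand, chr8:104101625-104144502) encodes VE-cadherin, the adherens junction protein of endothelium. It measured 4.68, 4.34 and 4.85 FPKM in WT1011, WT1012 and WT1013, and 4.98, 5.35 and 5.68 in KO. All KO libraries were above all WT libraries, though KO1011 stood only a little over WT1013. The means were 4.62 ± 0.263 and 5.34 ± 0.350 FPKM (SD, n = 3), 15.4% higher in KO, with a log2 fold change of 0.17 (SE 0.08, interval -0.02 to 0.36, limma adjusted p = 0.9999). Within pairs the difference was 0.07, 0.25 and 0.19.

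*Cldn5* (NM_013805, plus strand, chr16:18776847-18778262) encodes claudin-5, the principal claudin of the blood-brain barrier. Its values were 27.1, 34.0 and 35.3 FPKM in WT1011, WT1012 and WT1013, and 29.2, 32.2 and 36.9 in KO. Pair A was lowest and pair C highest in both genotypes, and the groups overlapped. The log2 fold change was 0.03 (SE 0.12, interval -0.26 to 0.32). *Pecam1* (NM_001305158, minus strand, chr11:106654213-106715281), which encodes the adhesion molecule CD31, stood at 6.62, 6.07 and 6.86 FPKM in WT and 6.61, 6.75 and 7.26 in KO, with a log2 fold change of 0.07 (SE 0.08, interval -0.11 to 0.25). Only WT1012 lay below every KO library. The ratio of *Cldn5* to *Pecam1* was 4.95 ± 0.778 in WT and 4.76 ± 0.334 in KO (SD, n = 3; exact permutation p = 0.70, 0.933 adjusted). Within pairs a sign-flip test gave an unadjusted p = 0.75. The log2 difference of -0.05 was above 0 without WT1012 or without KO1011.

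Of the 10 genes, the transporter genes *Slc2a1* and *Slco1a4* had the widest range between libraries. *Slc2a1* (NM_011400, plus strand, chr4:119108745-119137329) encodes GLUT1, which carries glucose across the barrier. It measured 31.5, 42.0 and 25.0 FPKM in WT1011, WT1012 and WT1013, and 35.3, 37.4 and 30.8 in KO. Pair B was highest and pair C lowest in both genotypes, and all KO values lay between the WT extremes. The log2 fold change was 0.10 (SE 0.17, interval -0.30 to 0.50), and it ran from -0.08 without WT1013 to 0.28 without WT1012. The ratio of *Slc2a1* to *Pecam1* was 5.11 ± 1.67 in WT and 5.04 ± 0.696 in KO (SD, n = 3; exact permutation p = 1). The mean log2 ratio was 0.02 higher in KO although the mean ratio was lower, so the ratio had no settled direction.

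*Slco1a4* (NM_030687, minus strand, chr6:141805440-141856171) encodes OATP1A4, an organic anion transporter of brain endothelium. It stood at 7.87, 9.14 and 6.59 FPKM in WT1011, WT1012 and WT1013 and at 8.82, 9.95 and 5.99 in KO. KO1012 was the highest library and KO1013 the lowest, so the KO range enclosed the WT range. The log2 fold change was 0.05 (SE 0.18, interval -0.37 to 0.46), and without KO1013 it was 0.24. *Abcb1a* (NM_011076, plus strand, chr5:8660092-8748570) encodes P-glycoprotein, the efflux pump that keeps many drugs out of the brain. It measured 4.06, 4.08 and 3.29 FPKM in WT and 4.11, 4.58 and 3.74 in KO, higher in KO in 3 of 3 pairs with overlap between genotypes. Its log2 fold change was 0.10 (SE 0.10, interval -0.14 to 0.34). Its ratio to *Pecam1* was 0.588 ± 0.099 in WT and 0.605 ± 0.083 in KO (SD, n = 3; exact permutation p = 0.70, 0.933 adjusted). This ratio was higher in KO in 3 of 3 pairs, and a sign-flip test within pairs gave an unadjusted p = 0.25. The log2 difference of 0.05 was below 0 without WT1013 or without KO1012. The labels do not say how reads shared by near-identical copies were counted, so *Abcb1a*, whose paralogue *Abcb1b* was listed at 0.354 to 0.489 FPKM, and *Slco1a4*, which has close relatives in the same gene cluster, are uncertain. *Abcb1a* and *Slc2a1* exons also overlap transcripts of the opposite strand in GENCODE M21.

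*Itm2a* (NM_008409, minus strand, chrX:107397195-107403360), which encodes a type II membrane protein widely used as a marker of brain endothelium, was the steadiest. Its values were 34.5, 36.7 and 37.0 FPKM in WT1011, WT1012 and WT1013, and 35.7, 37.5 and 37.0 in KO. The highest library was 1.09 times the lowest, against 1.68 times for *Slc2a1* and 1.66 times for *Slco1a4*. The log2 fold change was 0.02 (SE 0.07, interval -0.13 to 0.18), the narrowest interval of the 10.

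**Figure D3:**
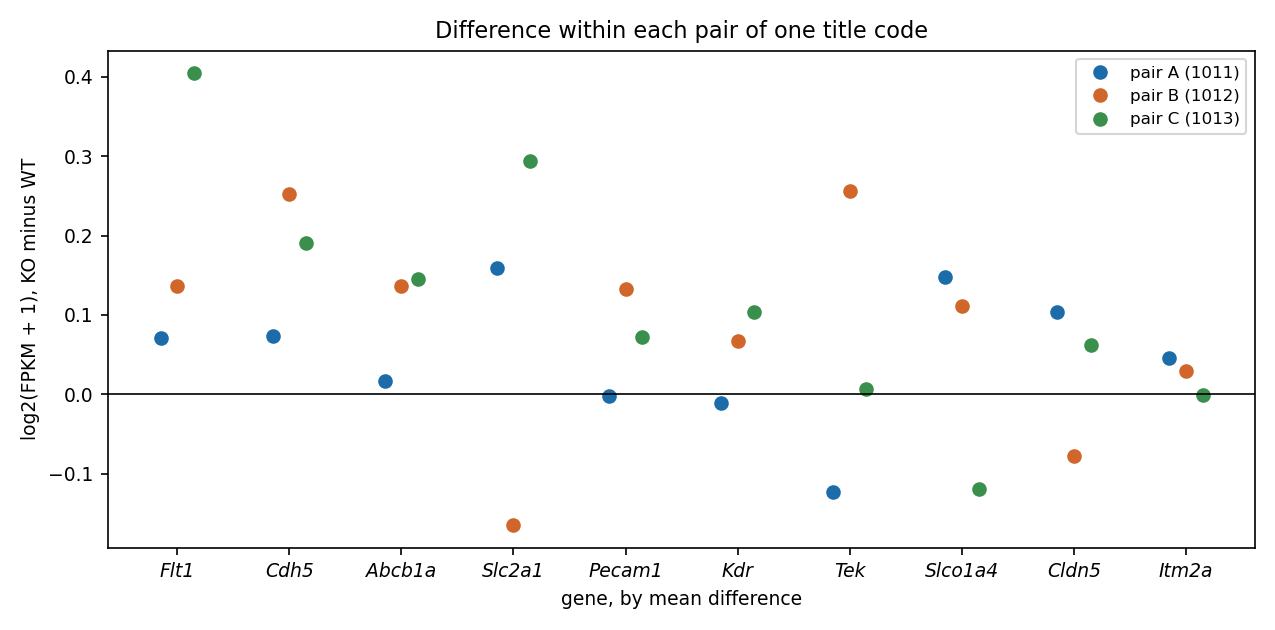
Difference KO minus WT on log2(FPKM + 1) within each pair (1 KO and 1 WT library each) for the 10 endothelial genes, ordered by mean difference. *Flt1*, *Cdh5* and *Abcb1a* lie above 0 in all 3 pairs, with the *Flt1* value of pair C at 0.40 the highest and the *Slc2a1* value of pair B at -0.16 the lowest.

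Levels followed the pair for some of the genes. For 7 of 10 the highest pair was the same in WT and KO, and for 6 of 10 the lowest was. The matching share of all tested genes was not counted. Over all tested genes, libraries of the same code deviated together (correlation 0.43 to 0.71), so such agreement was not particular to the endothelial genes. Whether these counts differ from those of other genes was not tested. The order was not shared. *Slc2a1*, *Slco1a4* and *Abcb1a* were highest in pair B and lowest in pair C in both genotypes, whereas *Cldn5*, *Pecam1* and *Cdh5* were highest in pair C. Being a transporter gene did not set the order. The 22 genes of the barrier transporter list summed highest in pair C, at 358 FPKM in WT and 365 in KO. An F test of the pairs in the limma fit with genotype, added after these values had been seen, called 3 of 10 genes at an adjusted p under 0.05, against 30.6% of all tested genes, so the share among the endothelial genes was near that of the transcriptome. These were *Slco1a4* (-0.53 in pair C against pair B on the log2(FPKM + 1) scale, limma adjusted p = 0.0104), *Cldn5* (0.35 in pair C against pair A, limma adjusted p = 0.0151) and *Slc2a1* (-0.50 in pair C against pair B, limma adjusted p = 0.0248). Without WT1013 the call was made for *Slco1a4* alone, and without KO1013 for *Slc2a1* alone. Over all 6 libraries *Abcb1a*, *Pecam1* and *Cdh5* were not called (limma F test adjusted p = 0.0856, 0.342 and 0.439).

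**Figure D4:**
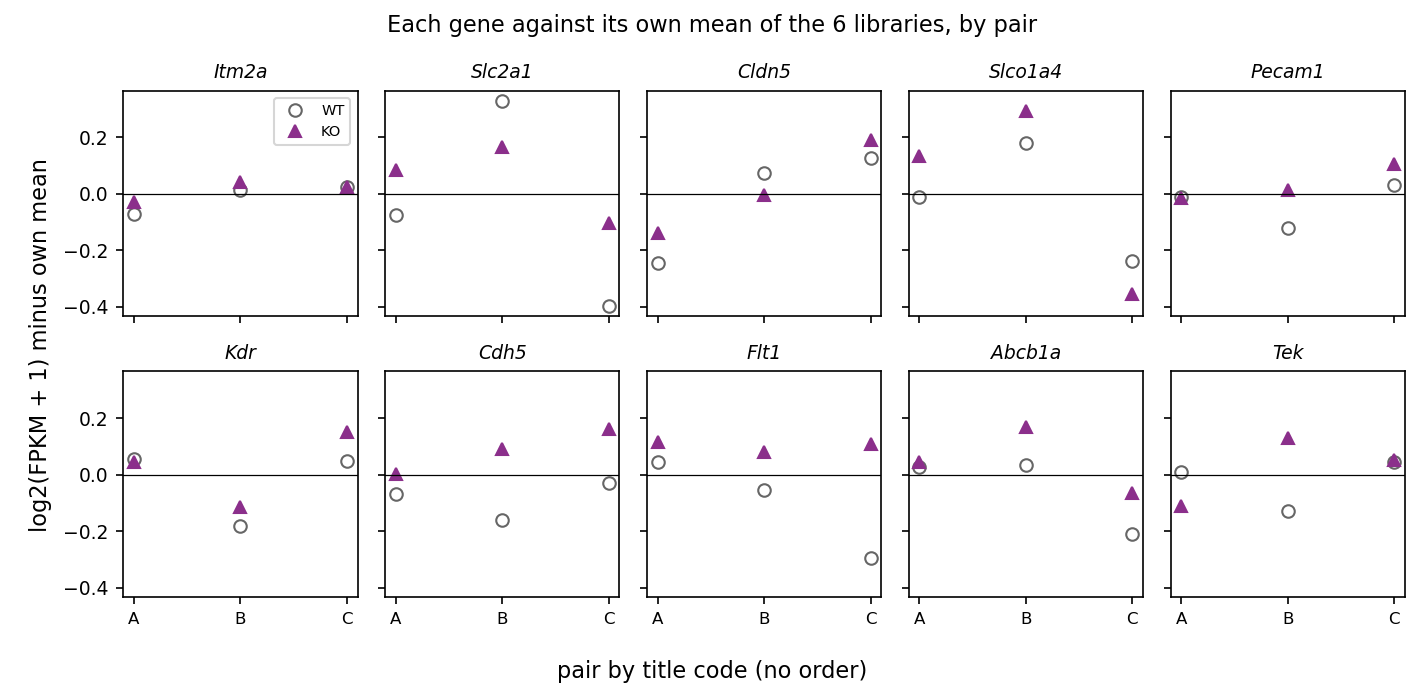
Each endothelial gene as log2(FPKM + 1) minus its own mean of the 6 libraries, by pair, with WT as open circles and KO as filled triangles. *Slc2a1* and *Slco1a4* are lowest in pair C in both genotypes and *Cldn5* is lowest in pair A, while *Itm2a* stays close to 0.

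Other genes of endothelium and its signalling pathways were counted in the same fit. The 6 lists below and lists of arterial and venous genes held 130 distinct genes, of which 117 were tested. Limma called 0 of them, with or without the block, and at an unadjusted p under 0.05 there were 2 without and 10 with it, where 0.63% and 3.91% of all tested genes were at such a p. Of the 117, 80 were higher in KO and 37 lower, where 6921 of all 12863 tested genes were higher and 5942 lower. The median log2 fold change of the 117 was 0.04. In 3 of 3 pairs 30 of the 117 were higher and 4 lower. Of all 12863 tested genes, 1582 (12.3%) were higher in 3 of 3 pairs and 1237 were lower.

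Of 26 further endothelial identity genes, 19 were higher in KO and 7 lower (median 0.04). *S1pr1*, a sphingosine-1-phosphate receptor gene also used by astrocytes, measured 43.4 ± 4.66 FPKM in the WT libraries and 44.2 ± 2.42 in the KO libraries (SD, n = 3), and *Cd34*, a vascular sialomucin gene, 29.7 ± 4.08 and 33.1 ± 3.92. *Erg*, an endothelial ETS factor gene, measured 1.66 ± 0.128 and 2.03 ± 0.061, with a log2 fold change of 0.19 (SE 0.08). *Vwf*, the von Willebrand factor gene, was at 2.17 ± 0.350 and 2.77 ± 0.416. No gene of this list passed.

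Of 12 tested junction genes, 9 were higher and 3 lower (median 0.05). *Cgnl1*, which encodes paracingulin, was at 2.12 ± 0.142 FPKM in WT against 2.58 ± 0.161 in KO (log2 fold change 0.20, limma adjusted p = 0.9999), and *Lsr*, a tricellular junction gene, at 4.12 ± 0.215 and 4.97 ± 0.666. *Ctnnb1* (beta-catenin) and *Cldn12*, both made in many cell types, had log2 fold changes of -0.02 and -0.01. Of 21 tested barrier transporter genes, 17 were higher and 4 lower (median 0.04). The amino acid transporter pair *Slc3a2* and *Slc7a5* stood at 0.05 and 0.07, the efflux pump gene *Abcg2* at 0.08 (8.57 ± 0.155 and 9.15 ± 0.549 FPKM) and *Slc16a4* at 0.13. No junction or transporter gene passed.

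The medians of the signalling lists were closer to 0. Of 17 tested genes of VEGF, angiopoietin and Notch signalling, 10 were higher and 7 lower (median 0.01). Among them the ligand genes *Vegfb* and *Pgf* had log2 fold changes of 0.06 and 0.25, the VEGF co-receptor gene *Nrp1* 0.15 and the Notch target *Hey1* -0.03. Of 19 tested genes of the Wnt and norrin signals that induce the barrier, 11 were higher and 8 lower (median 0.01), with the norrin receptor gene *Fzd4* at 0.13, the Wnt7 co-receptor gene *Adgra2* at 0.15 and *Tnfrsf19* at 0.06. Of 16 tested genes by which endothelium receives BMP and TGF-beta, 8 were higher and 8 lower (median 0.0046). The ligand gene *Bmp6* stood at 2.30 ± 0.318 FPKM in WT against 2.86 ± 0.023 in KO, *Bmper*, which modulates BMPs at endothelium, 2.34 ± 0.059 and 2.58 ± 0.050, the receptor gene *Bmpr2* 16.0 ± 0.75 and 16.3 ± 1.88, and the BMP target *Id3* 31.1 ± 3.57 and 30.4 ± 1.65. No gene of these lists passed.

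Markers of the cells around the endothelium were set beside these values. The 13 pericyte genes had a median of 0.07 (9 higher, 4 lower), and their summed level was 102 to 109 FPKM in WT and 105 to 116 in KO. The 3 tested smooth muscle genes had a median of 0.25, with the 6 listed genes summing to 14.99 to 20.01 and 18.34 to 20.93 FPKM. The 10 meningeal fibroblast genes had a median of 0.24 (9 higher, 1 lower, 0 called by limma, 3 at an unadjusted p under 0.05 and 5 with the block) and summed to 86.0 to 92.6 FPKM in WT and 93.6 to 118 in KO. Of all tested genes, 0.63% were at such a p without the block and 3.91% with it. Within pairs A, B and C the fibroblast median was -0.03, 0.22 and 0.40, while that of the 10 endothelial genes was 0.06, 0.12 and 0.09. For *Cdh5* and *Flt1* the difference within pair A, where the fibroblast median was below 0, was 0.07 each, the smallest of their 3 pairs. Pair A was also the smallest for *Pecam1*, *Kdr*, *Tek* and *Abcb1a*. It was the largest for *Cldn5*, *Slco1a4* and *Itm2a* (0.10, 0.15 and 0.05), and *Slc2a1* lay between. *Fmod*, a fibroblast proteoglycan gene, was at 6.59 ± 0.986 FPKM in WT against 8.69 ± 0.425 in KO, and the insulin-like growth factor gene *Igf2* at 36.2 ± 0.852 against 44.2 ± 7.53. The part of meningeal tissue in these values was not tested.

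**Figure D5:**
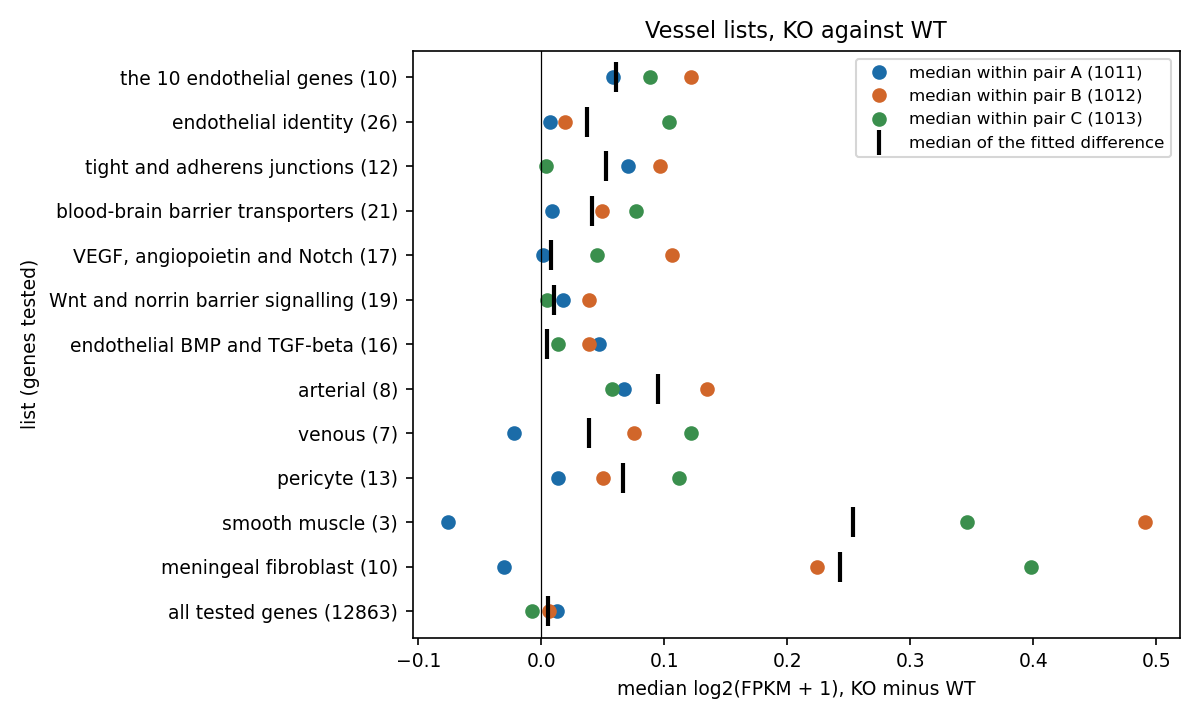
Median difference KO minus WT on log2(FPKM + 1) for the 10 endothelial genes, related lists and all tested genes (number tested in brackets); dots are medians within a pair and black bars medians of the fitted difference. The endothelial medians lie between 0.06 and 0.12 within pairs, and the fibroblast list runs from -0.03 to 0.40.

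Other marker lists varied by library. The 6 red blood cell genes summed to 9.06 to 12.8 FPKM in WT and 8.82 to 43.8 in KO, with KO1011 the highest. The 6 choroid plexus genes, led by *Ttr*, ran from 4.51 to 153 in WT and from 4.79 to 315 in KO, and the 6 striatal genes from 179 to 216 and from 72.9 to 215 (median difference -0.78, 6 of 6 lower in KO). Within pairs A, B and C the striatal median was 0.06, -1.09 and -1.38. All 6 striatal genes were at a limma unadjusted p under 0.05 with the block, where 3.91% of all tested genes were. Without KO1011 limma called *Penk* (adjusted p = 0.0102) and *Ppp1r1b* (adjusted p = 0.0227). Summed levels were 180 to 189 and 174 to 186 FPKM for 8 microglial genes, 4.39 to 5.94 and 3.84 to 5.30 for 6 perivascular macrophage genes, 579 to 600 and 579 to 634 for 6 astrocyte genes, 1935 to 2287 and 2023 to 2246 for 6 neuronal genes, and 1704 to 2806 and 1336 to 2589 for 6 oligodendrocyte genes. No gene of these lists was at 0 in all libraries, and limma called 0 of their tested genes over the 6 libraries. Their part in the endothelial values was not tested.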

How the data were processed

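The authors deposited 1 table of FPKM values for 6 libraries. Per the file headers, HOMER counted exon reads on mm10 with the transcripts of each gene merged into 1 row, and named no strand option. Per the submitters' processing notes, STAR 2.4.0k and HOMER 4.8.3 were used, and the labels name a stranded mRNA kit. FPKM compares relative levels only. The command names 12 libraries, of which 6 are not analysed here.

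Reads were recovered from the FPKM steps (100% of values checked whole within 0.1 read). Of 228 list entries, 228 matched a symbol. Limma 3.58.1 (R 4.3.3) was fitted on log2(FPKM + 1) with an intensity trend to 12863 genes of a mean of 1 FPKM or more, 2-sided, with Benjamini-Hochberg adjustment over all of them, called under 0.05. The scale understates changes of sparse genes. On simulated data with 200 changed genes in this comparison it called 0, 22, 46 and 50 of 50 at 1.25, 1.5, 2 and 4-fold (25, 48, 50 and 50 with the block, with 6 false calls). These folds were set on log2(FPKM + 1), so for sparse genes they stand for larger changes in FPKM. With 200 true changes the adjusted threshold is also looser than in the data, where limma called 1 gene. The counts therefore overstate what could be called here. Python 3.11.15, scipy 1.17.1 and matplotlib 3.10.9 served the rest. Alternatives were 20 other settings: the block, pseudocounts, filters, scalings, weights, voom, and left-out libraries.

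Libraries of the same title code deviated together (correlation over tested genes 0.43 to 0.71, against -0.61 to -0.06 for other pairings), so the codes pair the libraries, as a pattern of the data. Deviations were taken from the mean of each genotype. Positive same-code values therefore push the other pairings below 0, and these are no separate evidence. No 2 libraries agreed within sampling noise (lowest chi-square over its degrees of freedom 2.80). The members and lists were chosen with earlier results of these data known. Beside the members, the text names from each pathway list the 2 genes of highest mean FPKM and the 2 of smallest unadjusted p. Genes from the cell type lists were summed, and 5 of them are named. Protein sequences were not used here.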

Additional observations from a re-analysis of the deposited data

How the results depend on the processing

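No endothelial gene was called under any of the 20 alternatives. The replicate block left their calls at 0 and changed no call. With 1 library of each genotype per code the block cannot change a log2 fold change, so their median of 0.06 was bound to stay. The median lay between 0.039 and 0.104 when 1 library was left out and was 0.094 without pair A. Of 196 values of the 10 genes, 15 were below 0, each with a library or a pair left out. Of 548 values of the 28 other named genes, 547 kept their side or moved by under 1 SE. This measure is looser than the sign alone, since a small value may change sign under it. Without 1 library *Ackr1* ran from -0.14 to 0.21, and *S1pr1*, *Id3* and *Vegfb* were among others that crossed 0, while *Erg* and *Cgnl1* were among those that did not. Genes called by limma over all genes numbered 2 with a pseudocount of 0.1, 6 with no filter, 0 with a filter of 5 FPKM (which removes *Chrdl1* and 4 of the 10), 2 by voom with the replicate block, 1 to 4 without 1 library (4 without KO1011), and 0 without pair A or pair C, where *Chrdl1* stood at -1.93 and -1.91 (limma adjusted p 0.0906 and 0.244, 4 libraries). The difference of the log2 ratios ran, without 1 library, from 0.026 to 0.32 for *Flt1* to *Kdr*, from -0.18 to 0.049 for *Cldn5* to *Pecam1*, from -0.20 to 0.27 for *Slc2a1* to *Pecam1* and from -0.093 to 0.16 for *Abcb1a* to *Pecam1*. The genes of the 10 called between pairs numbered 5 by voom (34.3% of all genes), 4 with upper quartile scaling (31.4%) and 1 to 3 without 1 library (15.8% without WT1013 to 30.5% without KO1011). A count of 0 in a gene of 2000 bp allows up to 0.0393 FPKM in the deepest and 0.0662 in the shallowest library (3 counts), so depth did not limit detection of these genes.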

Other observations

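Arterial and venous genes, which mark the inflow and outflow ends of the vessel tree, were also listed. Of 8 tested arterial genes 5 were higher in KO and 3 lower (median 0.10), and of 7 venous genes 5 were higher and 2 lower (median 0.04). None was called by limma, over all genes or with the replicate block. *Mgp*, the matrix Gla protein gene, which fibroblasts and smooth muscle make as well, measured 27.6 ± 7.59 FPKM in WT against 33.6 ± 6.56 in KO (SD, n = 3), higher in 3 of 3 pairs, with a limma adjusted p of 0.904 with the block. *Sema3g*, an arterial semaphorin gene, was at 0.933 ± 0.043 and 1.27 ± 0.303 FPKM. *Ephb4*, the venous ephrin receptor gene, was at 1.48 ± 0.289 and 1.70 ± 0.120, and the adhesion gene *Vcam1* at 12.3 ± 2.05 and 12.6 ± 1.03. The row of *Ackr1*, a chemokine receptor gene of venules, read 52.8 ± 12.3 and 54.0 ± 10.7 FPKM, above the group means of each of the 10 endothelial genes. Its exons overlap those of *Cadm3* on the same strand in GENCODE M21, so its value is uncertain.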
